A study of Rattus norvegicus with 8 samples.

Results

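Integrins, laminins and nidogens are the genes through which cells of the vessel wall build their basement membrane and hold on to it. The set was defined by symbol and not by any measured value: integrin alpha and beta chains (Itga or Itgb followed by a number, by a number and 1 letter, or by 1 letter), laminin chains (Lama, Lamb or Lamc followed by a number) and Nid1 and Nid2. The NCBI table of rat genes holds 39 such genes. Of these, 27 could be tied to a probe on the array through its transcript accession, with 33 probes among 45598, which together named 16678 genes. The other 12 (Itga2, Itga2b, Itga3, Itga9, Itga11, Itgav, Itgax, Itgb8, Lama2, Lama3, Lamb1 and Nid1) were not analysed here. Of the 27 genes, 25 had at least 1 probe well above background on 3 or more of the 4 arrays of a group and were tested, among 24552 tests. Lama1 and Lamb3 did not.

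RNA came from vessels of 4 male hypertensive rats and 4 male control rats, with 1 array per animal. The 4 animals of the disease model carry the disease state hypertensive in the labels, and the 4 control animals are named control. Both groups have the strain entry Wistar-Kyoto, a normotensive laboratory strain, although the series title contrasts Wistar-Kyoto controls and hypertensive animals. Which strain the hypertensive animals belong to therefore stays unknown here. Age, treatment and the vessel taken are not given in the sources used here, and nothing shows that animals were pooled. The comparison asks which vessel transcripts change with hypertension. All 8 arrays lay on 1 slide and shared 1 scan time. The hypertensive arrays filled 1 row of the slide and the control arrays the other, so slide row and group cannot be told apart.

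Integrins are receptors made of an alpha and a beta chain that span the cell membrane. Outside the cell they bind matrix proteins or counter-receptors, and inside it they connect to the actin cytoskeleton through talin and kindlins. Laminins are cross-shaped trimers of an alpha, a beta and a gamma chain that form the sheet of the basement membrane around smooth muscle cells and beneath the endothelium. Nidogens bind the gamma chain of laminin and connect it to the collagen IV network. In arteries, integrins carry the pull of the matrix into the smooth muscle cell, and the endothelial laminins take part in the response to flow.

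Markers of the labelled tissue were present. All 9 smooth muscle markers were well above background on all 8 arrays, as were 8 of 10 endothelial markers, with the 2 others not named by any probe. The signal at the 75th percentile, to which levels are set, ran from 357 to 478 in hypertensive and from 405 to 503 in control arrays, and 58.7% to 64.1% of probes were well above background. Hypertensive replicate 4 stood apart on the second principal component of all tests (-44.6, against -12.1 to 24.9 for the other 7 arrays), and its summed adipocyte marker signal was 77.9 times the array's 75th percentile, while the remaining hypertensive arrays reached 14.5 to 21.1 and controls 16.9 to 30.0. In bulk tissue, fewer cells of a type and less RNA per cell cannot be told apart.

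Vessels of hypertensive rats had more signal for 2 of the 25 tested genes. Lamc3, a laminin gamma chain gene, was 2.23-fold higher, and Itga1, the alpha chain of a collagen receptor, was 1.63-fold higher. No member was lower past the threshold, which was an adjusted p under 0.05 in the limma fit over all 24552 tests. The count of 2 of 25 is 8%, beside 4.53% called among all tests (2.61% higher and 1.91% lower) and 4.18% of the 11965 named genes (2.12% higher and 2.06% lower), so the number of calls alone does not set these genes apart. The median log2 change of the 25 genes was -0.0011, beside 0.04 over all tests, with 12 values above 0 and 13 below. At an unadjusted p under 0.05 there were 9 members (36%; 6 higher and 3 lower), beside 20.3% of all tests and 19.8% of named genes. The hypertensive and control arrays did not overlap for 5 members (Lamc3, Itga1, Itga10, Nid2 and Itgb7; 20%), beside 13.6% of all tests and 14.3% of named genes. Without hypertensive replicate 4, 5 members passed, with Itgb2, Itgb7 and Nid2 lower beside the 2 rises. Without hypertensive replicate 2, 3 passed, the third being Itgal.

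**Figure D1:**
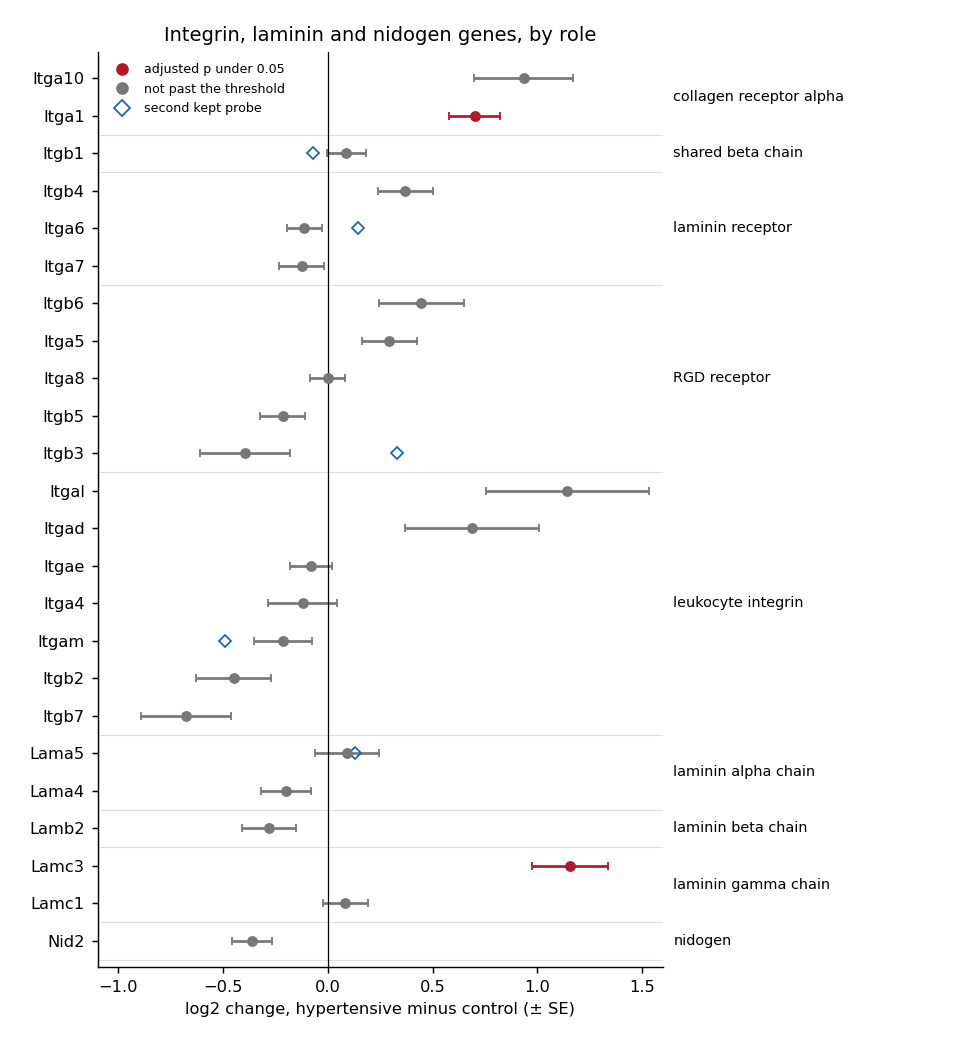
Log2 change (hypertensive minus control, x axis) of 24 of the 25 tested integrin, laminin and nidogen genes, grouped by role, with the standard error of the limma fit as bars (4 arrays per group). Red points are past the threshold, and open diamonds are the second kept probe of 5 genes; Lamc3 at 1.16 and Itga1 at 0.70 are the red points.

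Among the laminin chains, the gamma chain gene Lamc3 was the one that passed. Its levels, as log2 signal relative to the 75th percentile of the array, were 1.01, 0.40, 0.27 and 0.29 in hypertensive replicates 1 to 4, against -0.65, -0.97, -0.55 and -0.49 in control replicates 1 to 4. Every hypertensive array lay above every control array, and hypertensive replicate 1 was the highest of all. The log2 change was 1.16 ± 0.18 (SE; adjusted p = 0.0088). The call held when any 1 array was left out, with changes of 0.99 to 1.23, and was lost without eBayes moderation (adjusted p = 0.051). A second Lamc3 probe was not well above background on any array and gives no fold.

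Lamc1, the gamma chain found in most laminins of the vessel wall, was read by 10 spots per array. It averaged 3.92 ± 0.15 in hypertensive vessels and 3.83 ± 0.13 in controls (SD, n = 4 each), a log2 change of 0.08 ± 0.11 (adjusted p = 0.70).

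Lamc3 was set against Lamc1 within each array, as a pair chosen with the changes of both in view. Lamc3 minus Lamc1, relative to the control mean of that difference, was 1.51, 1.18, 0.70 and 0.91 on the log2 scale in hypertensive replicates 1 to 4, against -0.14, -0.15, 0.05 and 0.24 in control replicates 1 to 4. The groups did not overlap. As Lamc1 changed little, this difference mostly restates the Lamc3 levels and is not separate support.

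Of the laminin alpha and beta chains, 3 were tested and none passed. Lamb2, a beta chain of vascular and synaptic basement membranes, had levels of 3.73, 3.43, 3.32 and 3.45 in hypertensive replicates 1 to 4, against 4.06, 3.67, 3.65 and 3.66 in control replicates 1 to 4. Only hypertensive replicate 1 reached into the control range, and the log2 change was -0.28 ± 0.13 (adjusted p = 0.26), or -0.18 without control replicate 1. Lama4, the alpha chain of endothelial and muscle basement membranes, was at -0.20 ± 0.12 (adjusted p = 0.39). Lama5, the other main endothelial alpha chain, was at 0.09 ± 0.15 (adjusted p = 0.78), and at 0.13 on its second probe. Lama1, an alpha chain of early embryonic and epithelial basement membranes, and Lamb3, a beta chain of the epidermal basement membrane, were well above background on 0 of 8 arrays.

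Nid2, the nidogen that could be measured, had levels of 0.06, 0.01, 0.06 and 0.25 in hypertensive replicates 1 to 4, against 0.64, 0.48, 0.33 and 0.38 in control replicates 1 to 4. All hypertensive arrays lay below all control arrays, by a narrow margin. The log2 change was -0.36 ± 0.10 (adjusted p = 0.074). Nid2 passed under 3 of 18 alternative settings. It passed with normexp background correction (-0.30, adjusted p = 0.044), with array weights (-0.38, adjusted p = 0.048) and without hypertensive replicate 4, the highest of its group (-0.42, adjusted p = 0.047). Under the others it did not pass, with an adjusted p up to 0.18.

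**Figure D2:**
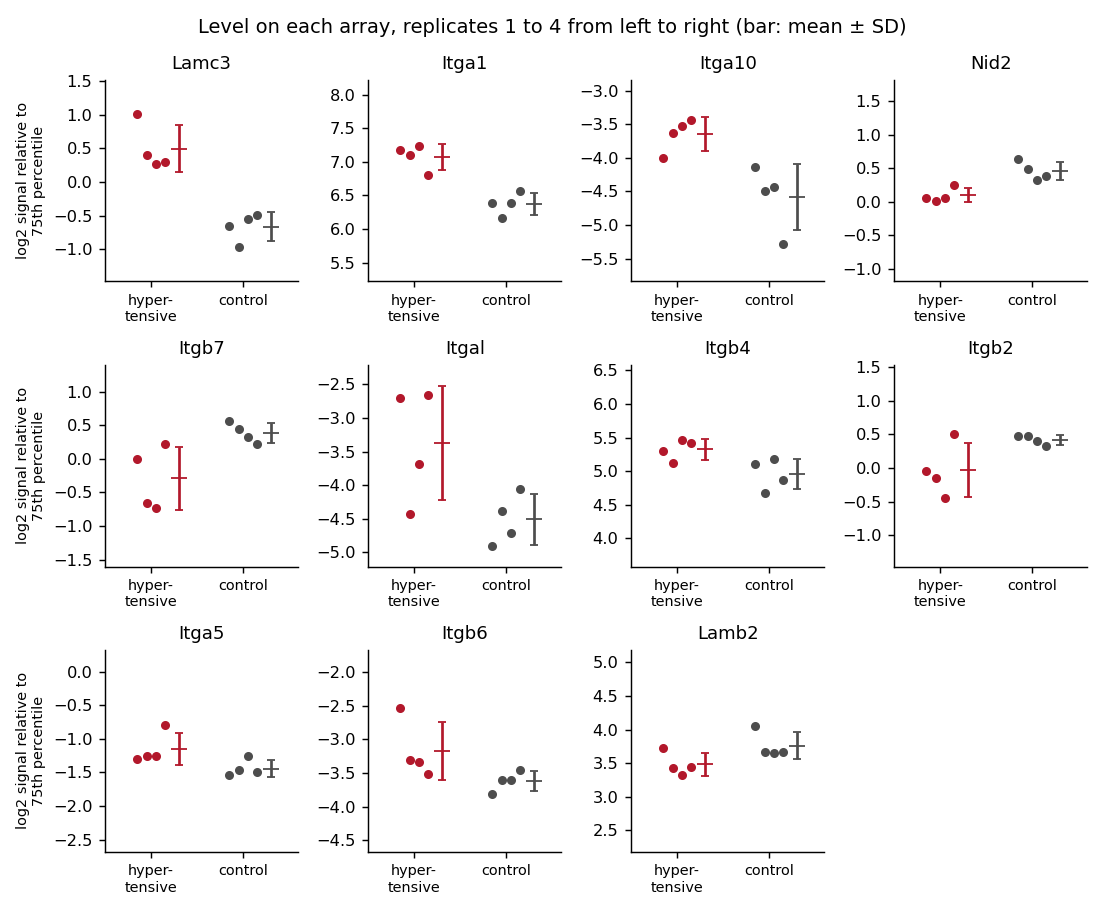
Level (log2 signal relative to the array's 75th percentile, y axis) on each of the 4 hypertensive (red) and 4 control (grey) arrays for 11 of the 12 members with the smallest unadjusted p, with the mean and SD as a bar. Every panel spans the same log2 distance; Lamc3 and Itga1 are the members past the threshold, and Itgal shows the widest scatter among the hypertensive arrays, from -4.43 to -2.66.

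Among the integrins, the collagen receptor chain Itga1 was the gene that passed. Itga1 pairs with Itgb1 into the receptor for collagen IV and other collagens that smooth muscle cells carry. Its levels were 7.17, 7.10, 7.24 and 6.80 in hypertensive replicates 1 to 4, against 6.39, 6.17, 6.38 and 6.56 in control replicates 1 to 4. No hypertensive array fell into the control range. The log2 change was 0.70 ± 0.12 (adjusted p = 0.015). The call held when any 1 array was left out, with changes of 0.63 to 0.79. It was lost without eBayes moderation (adjusted p = 0.053) and with the replicate number, which is also the slide column, as a block (adjusted p = 0.072).

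Itga10, a collagen receptor chain known chiefly from cartilage, had levels of -4.01, -3.63, -3.52 and -3.44 in hypertensive replicates 1 to 4, against -4.13, -4.50, -4.43 and -5.28 in control replicates 1 to 4. The groups did not overlap, but hypertensive replicate 1 and control replicate 1 were close, and the probe was above background on 3 of 4 control arrays. The log2 change of 0.93 ± 0.24 did not pass (adjusted p = 0.065). With normexp background correction, which compresses dim probes, it was 0.37 (adjusted p = 0.014). The other collagen receptor chains, Itga2 and Itga11, had no named probe.

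Itgb1, the beta chain that all these alpha chains share, was read by 10 spots per array. It averaged 6.36 ± 0.12 in hypertensive vessels and 6.28 ± 0.11 in controls (SD, n = 4 each), with a log2 change of 0.09 ± 0.09 (adjusted p = 0.63) and -0.07 on a second probe. Itga1 minus Itgb1, relative to its control mean, was 0.61, 0.77, 0.68 and 0.39 in hypertensive replicates 1 to 4, against -0.04, -0.05, -0.06 and 0.15 in control replicates 1 to 4. The groups stayed apart with the second Itgb1 probe too (0.54 to 0.98 in hypertensive arrays and -0.07 to 0.17 in controls). Relative to its partner, the alpha chain signal was higher on every hypertensive array than on any control array. As Itgb1 changed little on either probe, this difference mostly restates the Itga1 levels and is not separate support. Across the 14 partner or alternative-chain pairs examined, the groups did not overlap for 5, beside 13.6% of all single tests. That share is for single levels and not for differences, and none was computed over other pairs. The pairs were chosen with the changes in view and share chains, so the count of 5 is a description only.

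**Figure D3:**
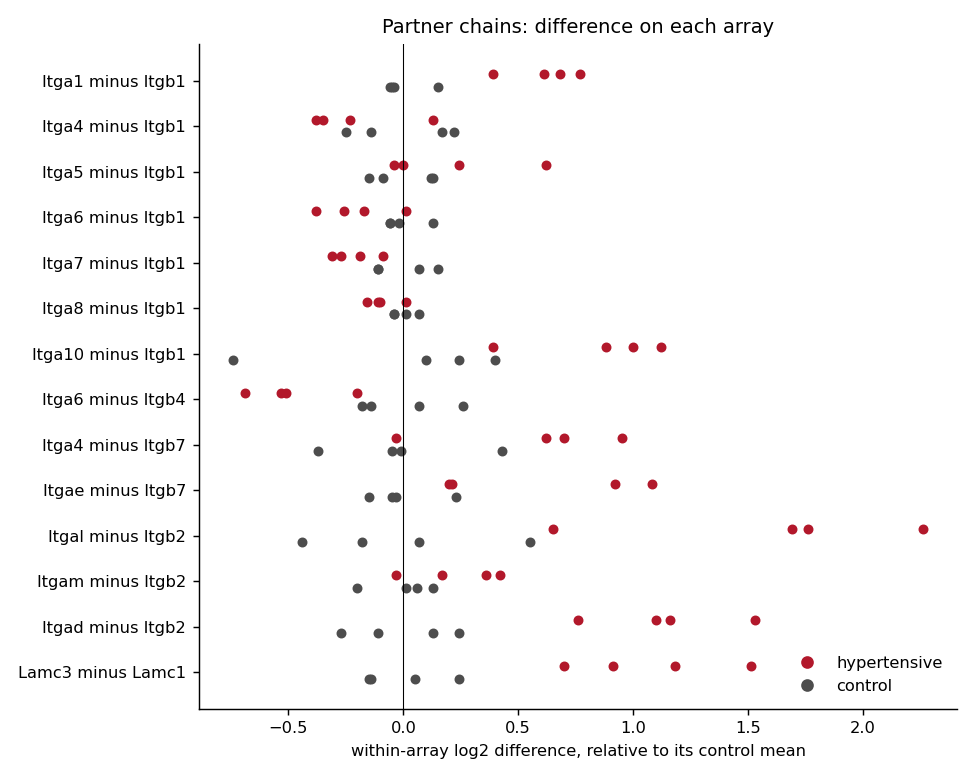
Within-array log2 difference between 14 pairs of partner or alternative chains, relative to the control mean of each pair (x axis), for the 4 hypertensive (red) and 4 control (grey) arrays. The groups are apart for Itga1 minus Itgb1, Itga6 minus Itgb4, Itgal minus Itgb2, Itgad minus Itgb2 and Lamc3 minus Lamc1.

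The promoters of Itga1 and Lamc3, the members past the threshold, are shown with those of Itga10 and Lamc1, tested chains of the same kinds, as the 250 bases before the start that the RefSeq promoter table uses (build GRCr8, gene strand, 5′ to 3′). They lie at chr2:48545284-48545533 (minus strand), chr3:35562739-35562988 (plus strand), chr2:186871461-186871710 (plus strand) and chr13:68051987-68052236 (minus strand). That start is the outer end of the gene in the gene table for Lamc3, Itga10 and Lamc1, while for Itga1 it lies 53 bases inside the gene, so the last 53 bases shown belong to the gene by that table. Of 29 member promoters, 14 start at the gene's outer end and 15 inside it, by 20 (Lama2) to 154869 bases (Lama3). Capitals mark matches, on either strand, to the GC box (GGGCGG) or the ETS core (GGAAG).
Itga1: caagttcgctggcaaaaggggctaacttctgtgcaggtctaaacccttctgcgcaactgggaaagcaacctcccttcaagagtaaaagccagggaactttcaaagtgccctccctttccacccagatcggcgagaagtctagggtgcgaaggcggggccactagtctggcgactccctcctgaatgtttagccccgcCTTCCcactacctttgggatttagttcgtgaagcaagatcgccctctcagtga
Lamc3: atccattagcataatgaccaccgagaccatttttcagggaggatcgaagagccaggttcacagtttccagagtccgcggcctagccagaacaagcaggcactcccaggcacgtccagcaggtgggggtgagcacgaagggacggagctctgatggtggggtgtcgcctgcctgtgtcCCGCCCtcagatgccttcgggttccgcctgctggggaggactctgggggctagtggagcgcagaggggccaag
Itga10: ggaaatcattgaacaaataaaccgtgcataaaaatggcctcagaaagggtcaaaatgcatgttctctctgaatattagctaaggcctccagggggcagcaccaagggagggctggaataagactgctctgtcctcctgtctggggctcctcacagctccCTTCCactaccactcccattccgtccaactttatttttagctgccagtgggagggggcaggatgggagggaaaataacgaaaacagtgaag
Lamc1: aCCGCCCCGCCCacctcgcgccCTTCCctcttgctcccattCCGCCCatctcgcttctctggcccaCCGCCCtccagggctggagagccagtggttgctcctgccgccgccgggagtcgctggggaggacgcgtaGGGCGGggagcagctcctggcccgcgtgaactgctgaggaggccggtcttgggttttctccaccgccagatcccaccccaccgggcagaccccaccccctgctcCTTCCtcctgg

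The promoters of Itga1 and Lamc3 shared none of the motifs searched for on both strands. Beside the GC box and the ETS core, these were the CCAAT box (its name gives the letters), the TATA box (TATAAA), the AP-1 motif (TGANTCA), the E-box (CACGTG) and the CArG box bound by serum response factor. Itga1 had 1 match, an ETS core on the opposite strand 53 to 49 bases before the promoter table's start, within the gene by the gene table, and Itga10 had the same motif once, 91 to 87 bases before. Lamc3 had 1 GC box, 73 to 68 bases before the start on the opposite strand. Lamc1 held 5 GC boxes, of which the first pair overlap by 1 base, and 2 ETS cores. Of the 39 genes of the set, 29 had a promoter in the table. A GC box lay in 15 of these (51.7%), beside 30.5% of all 33469 promoters, an ETS core in 20 (69.0%, beside 63.3%), a CCAAT box in 6 (20.7%, beside 34.0%) and a TATA box in 2 (6.90%, beside 12.9%). A CArG box was found for Itgb6 and Lama2 (6.90%, beside 1.5%; the Itgb6 match overlaps an ETS core), an AP-1 motif for Itgax and Lama3 (6.90%, beside 6.34%), and an E-box for none (beside 5.59%). By the gene table, the start used lies 48846 bases inside Itgb6, 9960 inside Itgax and 154869 inside Lama3. The matches of these genes therefore lie within the gene, as does the TATA box of Itgb7, whose start lies 4451 bases inside. The median GC content was 58.4% for the 29 members and 51.2% for all promoters. A match is a description of these letters only.

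The laminin receptor chains did not pass. Itgb4, which joins Itga6 in epithelial hemidesmosomes and in Schwann cells, was read by 10 spots per array and had levels of 5.30, 5.12, 5.47 and 5.42 in hypertensive replicates 1 to 4, against 5.10, 4.68, 5.18 and 4.87 in control replicates 1 to 4. Hypertensive replicate 2 lay within the control range, and the log2 change was 0.37 ± 0.13 (adjusted p = 0.16). Itga6, a laminin receptor chain of endothelium and epithelium, was at -0.11 ± 0.08 (adjusted p = 0.48), and its second probe at 0.14 ± 0.13. Itga7, the muscle laminin receptor chain, was at -0.12 ± 0.11 (adjusted p = 0.56). Itga6 minus Itgb4 did not overlap between the groups (-0.69 to -0.20 in hypertensive arrays and -0.18 to 0.26 in controls), but did with the second Itga6 probe (-0.63 to 0.03 and -0.17 to 0.17).

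Schwann cell markers were read beside Lamc3, Itga1 and Itgb4, and their sums did not overlap between the groups. The summed signal of the 8 tested markers, of 9 listed, was 6.99 to 9.45 times the 75th percentile in hypertensive arrays and 4.65 to 6.69 in controls, with 0 of 8 past the threshold. Among the other wall cells, summed smooth muscle markers ran from 317 to 455 in hypertensive arrays and 296 to 404 in controls, endothelial markers from 80.4 to 101 and 88.5 to 100, and fibroblast markers from 223 to 269 and 255 to 325. None of the 9 smooth muscle, 8 endothelial or 6 fibroblast markers tested passed. Summed skeletal muscle markers (6 tested of 8 listed) ran from 1.55 to 2.53 in hypertensive arrays and 1.58 to 1.85 in controls. Of these, Myh1 was higher (2.28 ± 0.50, adjusted p = 0.040), while Acta1 (-0.42 ± 0.16) and Tnnt3 (-0.14 ± 0.16) had negative changes and did not pass. The part of these cell types in the results was not tested.

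The receptors for matrix proteins with the arginine-glycine-aspartate motif did not pass either. Itga8, the nephronectin receptor chain, had the change closest to 0 of the 25, at 4.86 ± 0.10 in hypertensive vessels and 4.86 ± 0.07 in controls (SD, n = 4 each) and a log2 change of -0.0011 ± 0.08 (adjusted p = 0.997). Itga5, the fibronectin receptor chain, had levels of -1.30, -1.25, -1.26 and -0.79 in hypertensive replicates 1 to 4, against -1.54, -1.47, -1.26 and -1.50 in control replicates 1 to 4. The groups overlapped, with hypertensive replicate 1 below control replicate 3 and hypertensive replicate 3 level with it to the digits given. The log2 change was 0.29 ± 0.13 (adjusted p = 0.25). Without hypertensive replicate 4 the change was 0.17. Itgb6, an epithelial chain that activates latent TGF-beta, had levels of -2.53, -3.31, -3.34 and -3.51 in hypertensive replicates 1 to 4, against -3.81, -3.60, -3.60 and -3.46 in control replicates 1 to 4, with the groups overlapping (log2 change 0.45 ± 0.20, adjusted p = 0.26). It was 0.23 without hypertensive replicate 1 and 0.29 with normexp.

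Itgb5, a vitronectin receptor chain, was at -0.22 ± 0.11 (adjusted p = 0.30). Itgb3, the beta chain of the platelet fibrinogen receptor, was at -0.39 ± 0.22 on its brighter probe and 0.33 ± 0.20 on its second, so its direction is not settled. Beside Itgb3, the summed signal of the 3 tested platelet markers, of 7 listed, was 5.27 to 6.07 in hypertensive arrays and 6.92 to 9.07 in controls. None of the 3 passed, and they did not share a direction. Pf4 was at -0.44 ± 0.11 (adjusted p = 0.056), Treml1 at -0.05 ± 0.11 (adjusted p = 0.82) and Gp9 at 0.17 ± 0.11 (adjusted p = 0.45).

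None of the 7 tested leukocyte integrins passed, and their changes spanned -0.68 to 1.14. Itgb2, the beta chain of the leukocyte adhesion receptors, had levels of -0.04, -0.15, -0.44 and 0.51 in hypertensive replicates 1 to 4, against 0.48, 0.48, 0.40 and 0.33 in control replicates 1 to 4. The first 3 hypertensive arrays lay below all controls and replicate 4 above them. The log2 change was -0.45 ± 0.18 (adjusted p = 0.20), and without hypertensive replicate 4 it was -0.63 (adjusted p = 0.020).

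Itgb7, the beta chain of gut-homing lymphocyte integrins, had the lowest change of the set. Its levels were 0.00, -0.66, -0.73 and 0.22 in hypertensive replicates 1 to 4, against 0.56, 0.45, 0.32 and 0.22 in control replicates 1 to 4, with hypertensive replicate 4 level with control replicate 4 to the digits given. The log2 change was -0.68 ± 0.21 (adjusted p = 0.12), and it passed without hypertensive replicate 4 (-0.85, adjusted p = 0.039) and with array weights (-0.81, adjusted p = 0.039). Itgam, the alpha chain of the macrophage and neutrophil receptor, was at -0.22 ± 0.14 (adjusted p = 0.43), and at -0.49 ± 0.24 on its second probe.

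Itgal, the lymphocyte alpha chain that pairs with Itgb2, had a positive change. Its levels were -2.71, -4.43, -3.68 and -2.66 in hypertensive replicates 1 to 4, against -4.90, -4.38, -4.71 and -4.05 in control replicates 1 to 4. Hypertensive replicate 2 lay within the control range and the other 3 above it. The log2 change was 1.14 ± 0.39 (adjusted p = 0.14), and 1.5 (adjusted p = 0.041) without hypertensive replicate 2. Its spread between animals was wider than that of 98.2% of all tests.

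Itgad, another alpha partner of Itgb2, was at 0.69 ± 0.32 (adjusted p = 0.27), from -3.77 to -2.05 in hypertensive arrays and -4.03 to -3.37 in controls. Without hypertensive replicate 4 it was 0.38, and with normexp 0.44. Itgal minus Itgb2 ran from 0.65 to 2.26 in hypertensive arrays and from -0.44 to 0.55 in controls, and Itgad minus Itgb2 from 0.76 to 1.53 and -0.27 to 0.24. Both stayed apart with normexp background correction (0.66 to 1.20 against -0.28 to 0.21, and 0.77 to 0.88 against -0.10 to 0.19). Itgam minus Itgb2 overlapped. The Itgal and Itgad probes are dim, though above background on all 8 arrays. With normexp background correction the Itgal change was 0.54 (adjusted p = 0.043). In the genome Itgam, Itgax and Itgad stand next to one another, and whether their related transcripts reach each other's probes was not tested. Itga4 (-0.12 ± 0.17, adjusted p = 0.72), a lymphocyte and monocyte chain, and Itgae (-0.08 ± 0.10, adjusted p = 0.69), of tissue-resident T cells, did not pass.

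**Figure D4:**
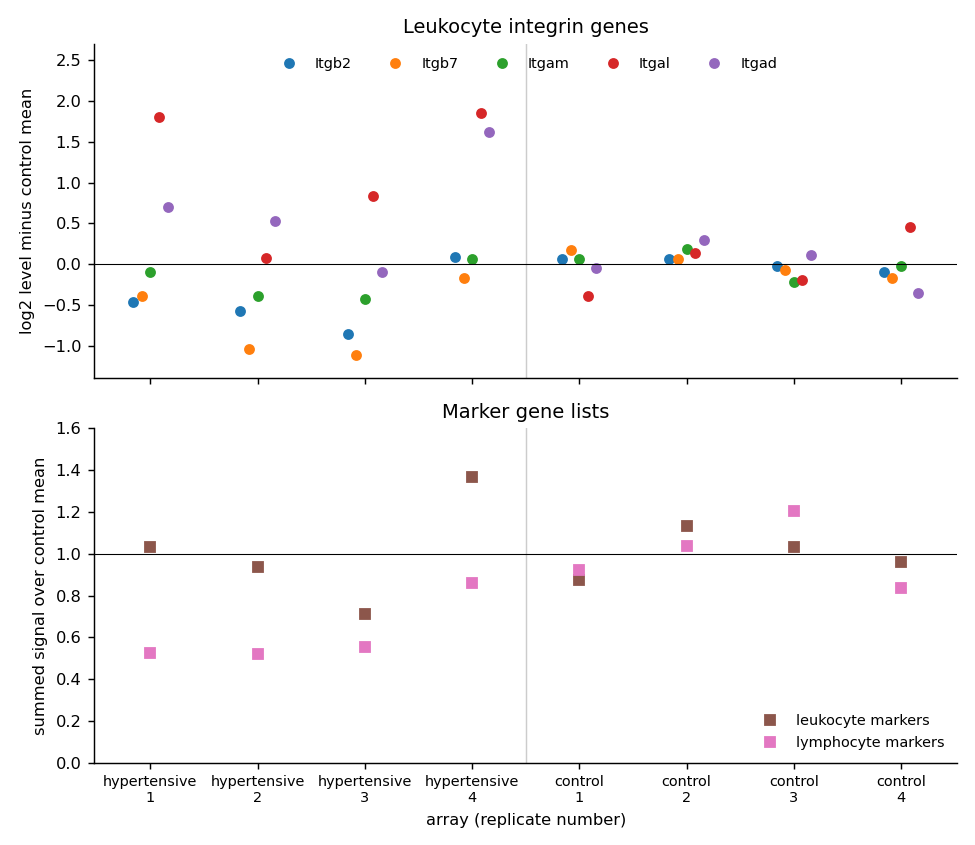
Upper panel: log2 level of 5 leukocyte integrin genes on each array, minus the control mean (y axis). Lower panel: summed signal of the leukocyte and lymphocyte marker lists over its control mean; hypertensive replicate 4 has the highest leukocyte sum of the 8 arrays (156) and the highest Itgb2 of its group.

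Leukocyte markers were read beside these genes. The summed signal of 11 general leukocyte markers was 117.7, 107.1, 81.4 and 156.1 in hypertensive replicates 1 to 4, against 99.9, 129, 118 and 110 in control replicates 1 to 4, with none past the threshold. Hypertensive replicates 4 and 3, the highest and the lowest of that group in this sum, were also the highest and lowest in Itgb2 and Itgb7. The 7 tested lymphocyte markers, of 9 listed, summed to 3.52, 3.49, 3.71 and 5.79 in hypertensive replicates 1 to 4, against 6.19, 6.96, 8.11 and 5.63 in control replicates 1 to 4, and none passed. The neutrophil list had 1 kept member of 7, at a sum of 0.0093 to 0.083 in hypertensive arrays and 0.076 to 0.094 in controls. The part of cell numbers in the leukocyte integrin values was not tested.

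Genes that work with integrins and laminins were read from lists chosen with earlier results of these data known. Of 28 tested genes of the adhesion machinery inside the cell (31 listed), none passed, where limma gave 4 (14.3%) at an unadjusted p under 0.05, beside 20.3% of all tests, and 1 passed without eBayes moderation. Src, a tyrosine kinase that signals from adhesions, was at -0.39 ± 0.11 (adjusted p = 0.096) on its brightest probe, and at -0.015 as the mean of its kept probes (adjusted p = 0.95). Fermt3, the kindlin of blood cells, was at -0.33 ± 0.11 (adjusted p = 0.14), and -0.42 (adjusted p = 0.047) without hypertensive replicate 4. The list's median change was 0.0057, beside 0.04 over all tests, with Tln1, the talin that activates integrins, at 0.02 ± 0.11. Of 14 tested basement membrane partners (24 listed), none passed and none had an unadjusted p under 0.05. Smoc2, a calcium-binding matrix protein gene, was at -0.45 ± 0.21 (adjusted p = 0.27) and Pxdn, which crosslinks collagen IV, at 0.21 ± 0.10 (adjusted p = 0.28), or 0.05 as the mean of its kept probes (adjusted p = 0.86). Their median change was 0.07.

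Of 25 tested integrin ligands and counter-receptors (29 listed), 1 rose and 2 fell, which is 12% called beside 4.53% of all tests and 4.18% of named genes. The list was chosen with earlier results of these data known, so this share is a description only. With only probes well above background on all 8 arrays, 2 were called, and Spp1, kept through the control arrays alone, dropped out. Tnc, which encodes tenascin C, a matrix protein of remodelling tissue, was higher by 1.38 ± 0.20 (adjusted p = 0.0059), with levels of -3.53 to -2.60 in hypertensive arrays and -4.70 to -4.36 in controls and no overlap. Its change was 0.53 with normexp background correction, also past the threshold. Spp1, which encodes osteopontin, was lower by a log2 change of -2.88 ± 0.33 (adjusted p = 0.0018), above background on 2 of 4 hypertensive arrays, and by -0.76 with normexp, where it also passed. Cdh1, the E-cadherin gene whose product binds the integrin of Itgae and Itgb7, was at -0.62 ± 0.14 (adjusted p = 0.048), with levels of -3.79 to -3.25 in hypertensive arrays and -3.06 to -2.63 in controls. The Cdh1 call was lost on leaving out any array other than hypertensive replicate 4 (adjusted p up to 0.13), without the filter on dim probes, without moderation, and with normexp (-0.18, adjusted p = 0.18). Beside Cdh1, the 4 tested epithelial markers of 7 listed summed to 3.04 to 5.27 in hypertensive arrays and 5.32 to 7.36 in controls. These markers did not share a direction. Krt8 was lower (-0.87 ± 0.14, adjusted p = 0.0087), and Krt18 was at -0.71 ± 0.19 (adjusted p = 0.077). Krt5 (0.24 ± 0.14, adjusted p = 0.38) and Krt14 (0.14 ± 0.14, adjusted p = 0.63) had positive changes. Epcam, Krt19 and Cldn4 had no kept probe. The median change of the ligand list was -0.14. The ligands Fn1 (0.10 ± 0.10), Vcam1 (-0.14 ± 0.12) and Icam1 (-0.10 ± 0.13) did not pass, with adjusted p of 0.62, 0.55 and 0.69.

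**Figure D5:**
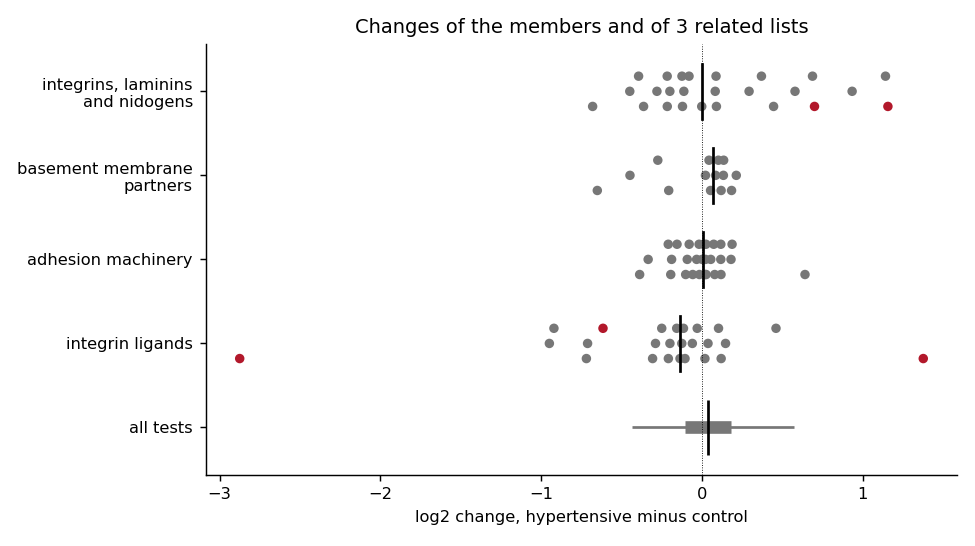
Log2 change (hypertensive minus control, x axis) of each tested member and of each tested gene of 3 related lists, with medians as black bars and genes past the threshold in red. The lowest row gives all 24552 tests, as the 25th to 75th percentile (-0.11 to 0.18, thick) and the 5th to 95th (-0.43 to 0.57, thin); 2 members and 3 integrin ligands are red.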

How the data were processed

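RNA from 8 vessel samples was labelled with Cy3 and hybridised to 1-colour Agilent arrays, per the labels' protocols. The deposited scanner files hold spot intensity values that the authors' Feature Extraction software had background-subtracted (version 10.7.1.1 per the file headers, 12.1.1.1 per the submitters' processing notes). The deposited value table is a linear ratio, equal to the processed intensity over a constant near each array's 75th percentile (0 probes above 1 off by over 5%). Its column medians were 0.09 to 0.101 in hypertensive and 0.086 to 0.092 in control arrays. It served as an alternative.

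Outlier-marked spots were dropped unless they were a probe's only spot, spots of a probe were averaged on the log2 scale, and the array's 75th percentile was subtracted. No spot was saturated. Probes well above background (on 50% or more of their spots) on 3 of 4 arrays of a group were kept (27822 probes). Symbols came from the NCBI table (assembly GRCr8), matching 46.6% of probes; the rest stay unnamed here. The brightest kept probe stood for a gene. The comparison of hypertensive and control arrays used lmFit and eBayes of limma (version 3.58.1, R version 4.3.3) with Benjamini-Hochberg adjustment, tested first on simulated data. Levels of different probes are not comparable. The number of arrays limits the precision.

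The members, lists and pairs were chosen with earlier results of these data known. Of the 25 tested members, 1 is counted in the totals and not reported here by name; of the 12 with the smallest p, 11 have their value on every array, and each list names its calls or its 2 smallest p, with Tln1, Fn1, Vcam1 and Icam1 added after their values were seen. The files have no mean spot signal, so normexp (offset 50) used the median signal. No slide or scan batch could be fitted, with 1 slide and 1 scan time.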

Additional observations from a re-analysis of the deposited data

Results flagged for a closer look

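Among the 50 groups of 4 arrays examined (25 members in 2 groups), 4 had an array whose gap to its nearest neighbour took up most of the group's range, where chance gives about 1 in 20. Itga5 in hypertensive replicate 4 was at -0.79, against -1.30 to -1.25 in the other hypertensive arrays. Itgb1 in control replicate 2 was at 6.12, against 6.32 to 6.34 in the other controls. Lama4 in control replicate 1 was at 2.14, against 1.92 to 1.95, and Lamb2 in the same array was at 4.06, against 3.65 to 3.67.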

How the results depend on the processing

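Of 449 values of single members under 18 alternatives, 427 kept their direction and their side of the threshold, 3 lost a call, 12 gained one and 7 changed sign. The lost calls were Itga1 with the replicate block (0.70, adjusted p = 0.072) and Itga1 and Lamc3 without moderation (adjusted p = 0.053 and 0.051). The signs that changed belong to members near 0. Itga6 was 0.016 as the mean of its kept probes. With 1 array left out, Lama5 ranged from -0.033 to 0.19 and Itga8 from -0.032 to 0.041.

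The number of members called was 2, and 6 with normexp (5 higher and 1 lower), 5 with array weights (2 lower), 0 without moderation (0 higher; 8 at an unadjusted p under 0.05) and 2 to 5 with 1 array left out (2 to 3 higher, 0 to 3 lower). It was 2 with quantile normalization, both other filters, every kept probe tested, the mean of kept probes, the value table and the replicate block. All tests called were 1111, and 1855 with normexp, 641 without the filter, 675 with the replicate block, 593 without moderation and 629 to 1473 with 1 array left out. Among the adhesion machinery, 1 gene was called without moderation and 0 to 1 with 1 array left out. The cause of these changes was not tested.

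The replicate number equals the slide column for all 8 arrays, so same-numbered arrays share a column. Beyond that, the numbers were not shown to pair the arrays: deviations of same-numbered arrays correlated at 0.21, 0.12, -0.0035 and -0.15 for replicates 1 to 4, and 2 of the 4 hypertensive arrays correlated best with the control of their own number. With the replicate block Lamc3 remained called (adjusted p = 0.040). A block for slide or scan was not run, since there was 1 of each. Dim probes (Itga10, Itgal, Itgad, Itgb3, Itgb6) limit what can be said of those genes.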

Other observations

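Members differed in how far animals of 1 group scattered. The pooled within-group SD was lowest for Itga6 (0.085), Itga8 (0.086) and Itgb1 (0.11) and highest for Itgal (0.66) and Itgad (0.54), with a median of 0.20 over the 25 members and 0.18 over all tests. The probes of members below background gave levels of -7.51 to -6.96 in hypertensive arrays and -7.91 to -7.30 in controls for Lama1, -6.35 to -5.57 and -6.55 to -5.89 for Lamb3, and -6.43 to -5.70 and -7.17 to -6.57 for the second Lamc3 probe. Of 5 members with a pair of kept probes, 2 had both probes on the same side of 0 (Itgam and Lama5) and 3 on opposite sides (Itga6, Itgb1 and Itgb3), none of them past the threshold on either probe.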
